A study of Mus musculus with 12 samples.

Results

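The Cyp3a enzymes, the 2 receptors that control them and their electron donor were examined in mouse liver RNA. The genes were chosen by symbol: Cyp3a11, Cyp3a13, Cyp3a25, Nr1i2, Nr1i3, Rxra and Por. Of these 7, 6 were found among the 13267 genes of the deposited table, and Rxra was not analysed here. C57BL/6 mice were made obese with steatotic livers by a high-fat diet, which both groups shared. The 6 4-HPAA samples came from mice in which a subcutaneous pellet then delivered 4-hydroxyphenylacetic acid (4-HPAA), a phenolic product of the bacterial breakdown of plant polyphenols in the gut, for 6 weeks, and the 6 control samples from mice with a scaffold control. Livers were flushed with saline and frozen at necropsy, and age, sex and dose were not stated. The labels number the samples without stating that each is a separate animal; each is called a liver here, and the p-values below cover the variation among these samples, which may be partly technical.

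CYP3A enzymes are cytochromes P450 of the endoplasmic reticulum that oxidise a wide range of drugs, steroids and bile acids, and in mouse liver Cyp3a11 is the form most often used to read their induction. Their transcription is raised by the nuclear receptors PXR (Nr1i2) and CAR (Nr1i3), which sense foreign compounds and bile acids and bind DNA as pairs with an RXR. POR passes electrons from NADPH to every microsomal P450, so it is needed by all of these enzymes. In inflammation, hepatocytes are known to make less of many P450 messages and more of the acute phase proteins.

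All values are the authors' read counts, scaled by library and rounded, called values below. Library totals ran from 22869813 to 25255447, and estimated read numbers from 22389551 to 26921499. Of 14 hepatocyte markers, 14 were in the table. 4-HPAA replicate 3 stood apart from all other livers on the second principal component, at −56.45 against −7.52 to 17.03, and values without it are given beside the results that it moved most. Because this is bulk RNA, fewer cells of a type and less RNA per cell cannot be told apart. The table names each gene by 1 transcript ID. For Cyp3a11 and Por that ID is a retained-intron transcript, and for Cyp3a25 it is one annotated as a target of nonsense-mediated decay. The sources used here do not say whether reads were counted over the gene or over that transcript.

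Cyp3a11, Cyp3a25 and Cyp3a13 all lie on chromosome 5 (GRCm38), Cyp3a11 at chr5:145854426-145879964, Cyp3a25 at chr5:145977194-146009618 and Cyp3a13, apart from them, at chr5:137892932-137921619, all on the minus strand. Por lies on the same chromosome at chr5:135670033-135735326 on the plus strand. Nr1i2 lies at chr16:38248323-38294824 (minus) and Nr1i3 at chr1:171213970-171220701 (plus). The region from 250 bases before to 50 bases after the start is shown for the Cyp3a genes, since their values differed in size and direction between the groups, with the adjacent gene Cyp3a59 for its likeness to Cyp3a25. Sequences are from RefSeq (GRCm38.p6), read 5′ to 3′ in the direction of the gene, and capitals mark AGGTCA and AGTTCA, the core hexamers bound by receptors of this family, on either strand.
Cyp3a11 (chr5:145879805-145880104, minus): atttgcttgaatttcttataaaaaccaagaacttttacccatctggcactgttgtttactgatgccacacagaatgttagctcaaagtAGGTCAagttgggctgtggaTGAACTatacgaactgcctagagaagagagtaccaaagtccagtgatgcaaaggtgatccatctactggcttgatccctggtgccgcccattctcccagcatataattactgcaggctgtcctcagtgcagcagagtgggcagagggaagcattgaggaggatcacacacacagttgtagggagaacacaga
Cyp3a25 (chr5:146009569-146009868, minus): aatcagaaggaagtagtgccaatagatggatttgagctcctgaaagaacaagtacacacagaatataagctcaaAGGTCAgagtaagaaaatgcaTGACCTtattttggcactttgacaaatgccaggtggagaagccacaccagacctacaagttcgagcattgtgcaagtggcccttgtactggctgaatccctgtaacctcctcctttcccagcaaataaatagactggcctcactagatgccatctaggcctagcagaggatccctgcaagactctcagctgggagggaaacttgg
Cyp3a59 (chr5:146079008-146079307, plus): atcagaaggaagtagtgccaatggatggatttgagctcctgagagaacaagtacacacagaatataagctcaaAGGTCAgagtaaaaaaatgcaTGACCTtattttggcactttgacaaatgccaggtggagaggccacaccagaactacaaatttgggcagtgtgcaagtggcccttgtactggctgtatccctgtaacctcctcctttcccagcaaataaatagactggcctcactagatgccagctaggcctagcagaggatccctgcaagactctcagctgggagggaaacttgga
Cyp3a13 (chr5:137921570-137921869, minus): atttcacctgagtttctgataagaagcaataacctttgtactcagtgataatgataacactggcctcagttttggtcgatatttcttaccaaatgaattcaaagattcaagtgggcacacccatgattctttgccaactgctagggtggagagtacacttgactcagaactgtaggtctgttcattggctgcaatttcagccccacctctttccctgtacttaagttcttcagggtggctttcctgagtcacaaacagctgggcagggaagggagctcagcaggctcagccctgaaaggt

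The Cyp3a11 region held AGGTCA in the direction of the gene at position −162 from the start and AGTTCA on the opposite strand at −142. The Cyp3a25 region held AGGTCA once on each strand, at −176 and −155, and the Cyp3a59 region held the same pair at −177 and −156. Over 299 aligned bases, the Cyp3a25 and Cyp3a59 regions were 96.3% identical. Neither hexamer was found in these windows of Cyp3a13, Nr1i2, Nr1i3 or Por. The Por window, chr5:135688895-135689194, lies at a RefSeq start inside the gene span given above, and the outer start of that span was not searched. Of 27025 promoters of the same length, 16% held AGGTCA, 14% held AGTTCA, 27.6% held at least 1 of them and 5.1% held 2 or more matches. A direct repeat of AGGTCA with 3 bases between occurred in 2 of the 27025 promoters (0.0074%), and one of AGTTCA in 0. None of these Cyp3a, receptor or Por windows held either repeat, which the rarity of both makes uninformative. These matches describe letters in a short window and say nothing of binding.

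Cyp3a11 showed the largest difference among the 6 genes, with values in 4-HPAA livers at about 0.4 of those in controls. In 4-HPAA replicates 1 to 6 its values were 4993, 4668, 4171, 13467, 7394 and 9780, against 15326, 24608, 15390, 19276, 24266 and 12047 in control replicates 1 to 6. The 4-HPAA livers of replicates 1, 2, 3, 5 and 6 lay below every control, and replicate 4 lay above the lowest control, so the groups overlapped by 1 liver. The mean was 7412.2 ± 3637 in 4-HPAA livers and 18485.5 ± 5149 in control livers (SD, n = 6 each), a ratio of 0.401. On the log2(value + 1) scale the difference was −1.41 ± 0.28 (SE; 95% interval −2.02 to −0.79). It ranked 32nd by p of 12720 genes tested, and it did not pass over all genes (limma, Benjamini-Hochberg adjusted p = 0.103, unadjusted p = 0.000266). No gene of the whole table passed: 0 of 12720, or 0%, had an adjusted p under 0.05, 1886 had an unadjusted p under 0.05 and limma with voom called 0. The exact permutation test of Cyp3a11 alone, over every split of the livers, gave p = 0.00433 (two-sided). Without 4-HPAA replicate 4, the highest of its group, Cyp3a11 passed (limma, adjusted p = 0.0169, difference −1.60), as it did with array weights (limma, adjusted p = 0.0404). Under these settings 193 and 139 genes of the whole table passed, so passing there was not particular to Cyp3a11. Without 4-HPAA replicate 3, which stood apart, the difference of Cyp3a11 was −1.27 (limma, adjusted p = 0.134, unadjusted p = 0.00132). Over 23 alternatives the adjusted p of Cyp3a11 ran from 0.0169 to 0.286 and its difference from −1.60 to −1.27.

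**Figure D1:**
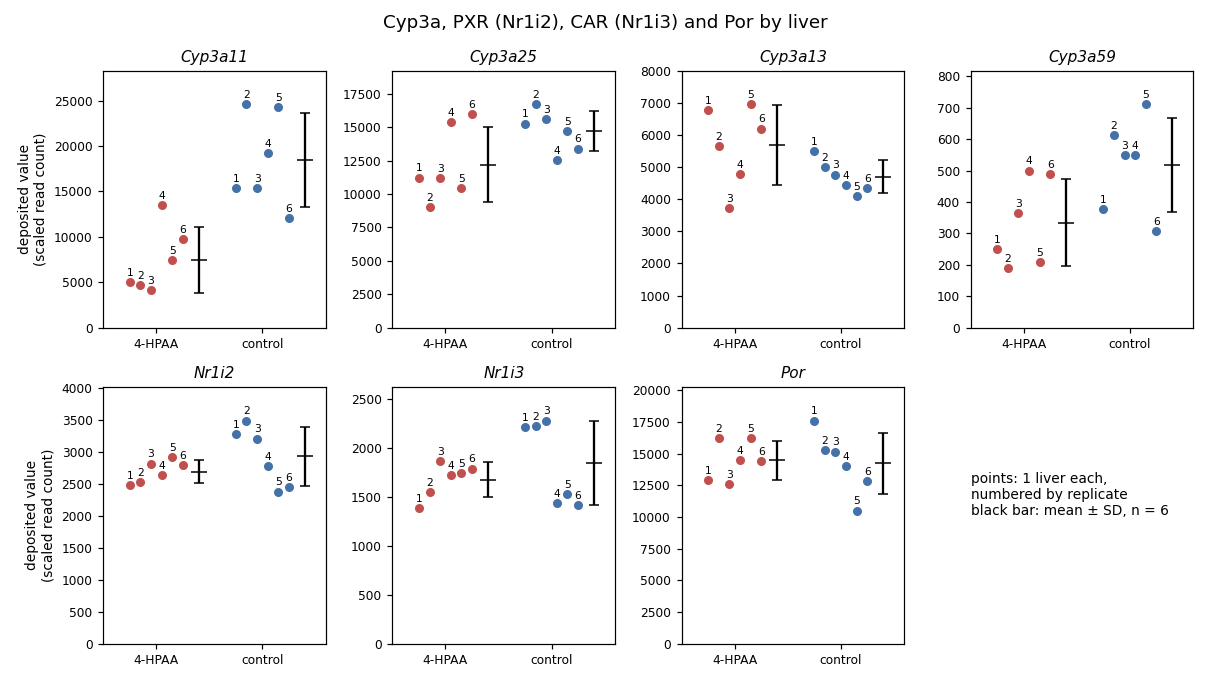
Deposited value (scaled read count, vertical axis from 0) of each gene in each liver, 4-HPAA left and control right; points are livers numbered by replicate and black bars are the mean ± SD (n = 6). Of the 4-HPAA livers, 5 lie below all controls for Cyp3a11, and for Nr1i3 control replicates 1 to 3 lie above all other livers.

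Cyp3a25, a further liver enzyme of the family, had values of 11245, 9024, 11207, 15386, 10451 and 15980 in 4-HPAA replicates 1 to 6, against 15289, 16737, 15610, 12573, 14720 and 13413 in control replicates 1 to 6. Replicates 1, 2, 3 and 5 of the 4-HPAA group lay below all controls, while replicates 4 and 6 lay within the control range. The difference was −0.29 ± 0.13 on the log2 scale (95% interval −0.58 to −0.01; limma, adjusted p = 0.325, unadjusted p = 0.0445), and the exact permutation test gave p = 0.0714 (two-sided). Without 4-HPAA replicate 3 the difference was −0.28 ± 0.14 (limma, adjusted p = 0.296, unadjusted p = 0.0715).

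Cyp3a59, the neighbour that is no member of the chosen genes but was the only other Cyp3a gene of 6 listed that is in the table, had much lower values, 190 to 500 in 4-HPAA livers (median 307) and 306 to 711 in control livers (median 549). Its difference was −0.68 ± 0.28 (95% interval −1.28 to −0.09; limma, adjusted p = 0.277, unadjusted p = 0.0281), with 3 of 6 4-HPAA livers below all controls. Reads of Cyp3a25 and Cyp3a59 may be hard to separate. Of all stretches of 50 bases in Cyp3a25 transcripts, 26.8% also occur in another Cyp3a gene or pseudogene, most of them in Cyp3a59, and 6.79% of stretches of 100 bases do. For Cyp3a11 these shares were 6.73% and 0.141%, and for Cyp3a13 both were 0%. By this measure alone, the values of Cyp3a25 and Cyp3a59 are less certain than those of Cyp3a11 and Cyp3a13. The Cyp3a11 shares cover all its transcripts, with 5093 merged exon bases against 2344 in its longest coding transcript. Sharing within the coding transcript alone was not computed, and how reads of its retained-intron ID were counted is not known.

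Cyp3a13, which is also made outside the liver, stood on the other side of 0. Its values were 6796, 5672, 3733, 4783, 6969 and 6212 in 4-HPAA replicates 1 to 6, against 5521, 5010, 4776, 4457, 4101 and 4367 in control replicates 1 to 6. Of the 4-HPAA livers, 4 lay above all controls and replicate 3 lay below all of them. The mean was 5694.2 ± 1248 in 4-HPAA livers and 4705.3 ± 510.8 in control livers (SD, n = 6 each). The difference was 0.25 ± 0.14 (95% interval −0.05 to 0.55; limma, adjusted p = 0.422, unadjusted p = 0.0944), and the exact permutation test gave p = 0.136 (two-sided). Without replicate 3 of the 4-HPAA group the difference was 0.37 ± 0.10 (limma, adjusted p = 0.144, unadjusted p = 0.00338). In that fit 2490 genes of the whole table had an unadjusted p under 0.05, against 1886 with all livers.

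**Figure D2:**
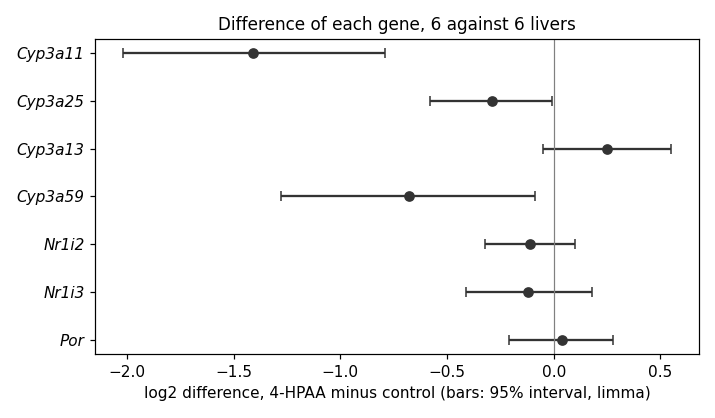
Log2 difference, 4-HPAA minus control, of each gene with its 95% interval from limma (6 against 6 livers). The intervals of Cyp3a11, Cyp3a25 and Cyp3a59 lie below 0, and those of Cyp3a13, Nr1i2, Nr1i3 and Por hold 0; no gene passed after adjustment over all genes.

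The makeup of the Cyp3a messages follows from these values. Summed over Cyp3a11, Cyp3a13 and Cyp3a25, the value was 19111 to 33636 in 4-HPAA livers (median 23924) and 29827 to 46355 in control livers (median 36221). Cyp3a11 made up 21.7 to 40% of this sum in 4-HPAA livers and 40.4 to 56.3% in control livers, so the shares of the groups did not overlap. Cyp3a13 made up 23.3% ± 6.46 in 4-HPAA livers and 12.6% ± 2.22 in control livers (SD, n = 6 each). The ratio of Cyp3a11 to Cyp3a25 was 0.372 to 0.875 in 4-HPAA livers and 0.898 to 1.65 in control livers. These shares are of scaled counts without correction for length, and they restate the values of the single genes without a test of their own.

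**Figure D3:**
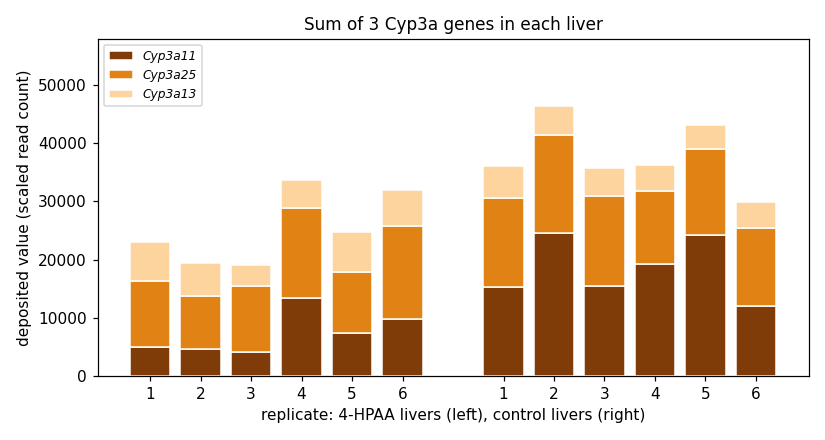
Deposited values (scaled read counts, vertical axis from 0) of Cyp3a11, Cyp3a25 and Cyp3a13 stacked for each liver, 4-HPAA replicates on the left and control replicates on the right. The Cyp3a11 part is 21.7 to 40% of the stack in 4-HPAA livers and 40.4 to 56.3% in control livers.

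Messages of the receptors differed less than their spread. PXR (Nr1i2) had values of 2483, 2528, 2822, 2635, 2920 and 2792 in 4-HPAA replicates 1 to 6, against 3282, 3495, 3212, 2783, 2383 and 2449 in control replicates 1 to 6. All 4-HPAA values lay within the control range and below the control mean. The difference was −0.11 ± 0.10 (95% interval −0.32 to 0.10; limma, adjusted p = 0.652), an interval that holds a ratio of 0.8 to 1.08.

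CAR (Nr1i3), which is held in the cytosol until it is activated, had values of 1385, 1552, 1871, 1728, 1742 and 1790 in 4-HPAA replicates 1 to 6, against 2214, 2223, 2281, 1438, 1530 and 1419 in control replicates 1 to 6. The control livers fell into separate sets, with replicates 1 to 3 above every 4-HPAA liver and replicates 4 to 6 in the lower part of the 4-HPAA range, while 4-HPAA replicate 1 lay below all controls. No label divides the control samples in this way. Control replicates 1 to 3 also lay above control replicates 4 to 6 in Nr1i2, Por, Cyp3a13 and Cyp3a25, and in Nr1i2 above every 4-HPAA liver too, but not in Cyp3a11. The difference was −0.12 ± 0.14 (95% interval −0.41 to 0.18; limma, adjusted p = 0.744), a ratio of 0.752 to 1.13. The spread was wider in controls for both receptors, with a coefficient of variation of 6.48% in 4-HPAA and 15.8% in control livers for Nr1i2, and 10.6% in 4-HPAA and 23.1% in control livers for Nr1i3. Nr1i3 shares 74.9% of its merged exon bases with Tomm40l, a gene on the opposite strand, and the sources used here do not say if reads were assigned by strand. Tomm40l had values of 363 to 534 in 4-HPAA livers, 556 to 772 in control replicates 1 to 3 and 260 to 422 in control replicates 4 to 6, so it shared the split of the controls, and its part in the Nr1i3 values was not tested.

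Of the other RXR isoforms, Rxrb averaged 868.3 ± 79.2 in 4-HPAA and 865.3 ± 78.1 in control livers (SD, n = 6 each). Rxrg was lower in level, at 105 to 207 in 4-HPAA and 93 to 192 in control livers. Their differences were 0.00 ± 0.08 and −0.11 ± 0.21 (limma, adjusted p = 0.986 and 0.846).

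Por, the electron donor, had values of 12940, 16193, 12592, 14505, 16232 and 14426 in 4-HPAA replicates 1 to 6, against 17607, 15293, 15159, 14009, 10506 and 12800 in control replicates 1 to 6. The 4-HPAA livers all lay within the control range. The difference was 0.04 ± 0.11 (95% interval −0.21 to 0.28; limma, adjusted p = 0.913), and its sign turned with quantile normalization (−0.044) and without control replicate 5 (−0.047).

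Among the 6 genes, 2 had an unadjusted p under 0.05 in limma, Cyp3a11 and Cyp3a25, both lower. Of all 12720 genes, 7.56% were lower and 7.26% higher at that threshold. None of the 6 had groups that did not overlap, against 0.354% of all genes lower and 0.307% higher without overlap.

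Levels can be compared between genes only per length. Per kilobase of merged exons, the 4-HPAA means ran from Cyp3a25 at 5864.4 ± 1349.0 through Por at 3601.4 ± 384.4, Cyp3a13 at 1926.3 ± 422.1, Cyp3a11 at 1455.4 ± 714.2 and Nr1i2 at 1056.3 ± 68.4 to Nr1i3 at 380.2 ± 40.3 (SD, n = 6). The control means ran from Cyp3a25 at 7068.5 ± 728.1 through Cyp3a11 at 3629.6 ± 1010.9, Por at 3538.7 ± 602.6, Cyp3a13 at 1591.8 ± 172.8 and Nr1i2 at 1149.2 ± 181.6 to Nr1i3 at 419.3 ± 96.9 (SD, n = 6). Cyp3a11 overlapped in range with Cyp3a13 and with Nr1i2 in 4-HPAA livers, and Cyp3a11 with Por in control livers. The places of Cyp3a11 and Por depend on the length used. Per kilobase of the transcript that the table names, Por averaged 21485.7 ± 2293.1 in 4-HPAA livers and 21111.3 ± 3595.2 in control livers, above Cyp3a25 at 6382.2 ± 1468.2 in 4-HPAA livers and 7692.6 ± 792.4 in control livers, and per kilobase of its longest coding transcript Por averaged 5493.7 ± 586.3 in 4-HPAA livers and 5398.0 ± 919.3 in control livers. Per kilobase of its longest coding transcript Cyp3a11 averaged 3162.2 ± 1551.8 in 4-HPAA livers and 7886.3 ± 2196.5 in control livers, beside 6107.8 ± 1405.0 in 4-HPAA livers and 7361.8 ± 758.4 in control livers for Cyp3a25.

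Correlations among the members were computed on log2(value + 1) within each group, and those of the 4-HPAA livers are given here. Control replicates 1 to 3 and 4 to 6 separated in 5 of the 6 genes, and neither set is large enough for its own. This restriction was chosen after values were seen, in place of the planned correlations over all livers. None of the 15 pairs passed after Benjamini-Hochberg adjustment over 30 correlations within groups. For Nr1i2 and Nr1i3, r was 0.845 and rho 0.829 (n = 6, exact permutation p = 0.0264 and 0.0583, adjusted p = 0.167 and 0.35), and r was 0.956 without the 2 livers farthest from the median of Nr1i2. For Cyp3a11 and Cyp3a25, r was 0.809 and rho 0.657 (n = 6, exact permutation p = 0.0611 and 0.175, adjusted p = 0.306 and 0.604). Without the 2 livers farthest from the median of Cyp3a11, replicates 4 and 6, which were its highest, r was −0.033. Cyp3a11 and Nr1i2 had r = 0.205 and rho = 0.029 (n = 6, exact permutation p = 0.692 and 1, adjusted p = 0.89 and 1), and r was 0.472 without the 2 farthest livers. Each r without 2 livers covers a narrower range of few livers and is given without a test.

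**Figure D4:**
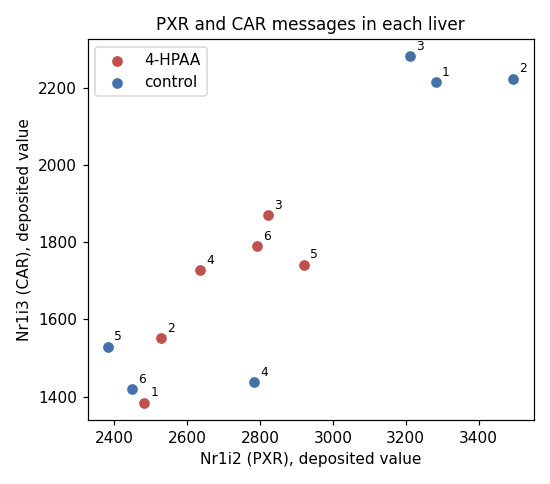
Deposited value of Nr1i2 (PXR, horizontal axis) against Nr1i3 (CAR, vertical axis) in each liver, numbered by replicate (axes do not start at 0). Control replicates 1 to 3 sit at the upper right, with Nr1i3 at 2214 to 2281, and control replicates 4 to 6 at the lower edge, with 1419 to 1530.

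Among the genes most like Cyp3a11 after subtraction of group means over 12 livers, of 9590 genes with a mean value of at least 100, were the glutathione reductase Gsr (r = 0.896), the ceramide synthase Cers6 (0.894), Reln (0.891), which is also among the stellate cell markers below, and Sparcl1 (0.890). Most like Nr1i3 were the sorbitol dehydrogenase Sord (r = 0.961), the pericentral P450 Cyp2e1 (0.958), the peroxiredoxin Prdx6 (0.925), Cyp2d22 (0.914) and Klf13 (0.906). These are the highest of many values over few livers, the separate sets of controls are part of those for Nr1i3, and they are given as a description with no test. Cyp2e1 had values of 223794 to 300827 in 4-HPAA livers, 287788 to 300323 in control replicates 1 to 3 and 201214 to 218216 in control replicates 4 to 6, the split seen in Nr1i3.

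Genes that PXR and CAR are known to induce differed in both directions. Of 16 tested phase 1 enzymes, which oxidise or hydrolyse compounds, 3 were lower and 2 higher at an unadjusted p under 0.05 in limma, with a median difference of −0.16 against −0.001 over all genes tested. Of all genes, 7.56% were lower and 7.26% higher at that threshold. Without 4-HPAA replicate 3 the counts of this list were also 3 and 2, and its median was −0.05. In the whole table, genes under that threshold rose from 1886 to 2490 without this liver. Cyp1a2, which also belongs to the aryl hydrocarbon receptor pathway, averaged 14282.7 ± 1968 in 4-HPAA and 8706.3 ± 2686 in control livers (SD, n = 6 each), a difference of 0.76 ± 0.18. Cyp1a2 is also counted among the pericentral hepatocyte markers below. The carboxylesterase Ces2c was at 0.73 ± 0.24, and the P450 genes Cyp2c39 and Cyp2c38 at −1.15 ± 0.35 and −1.11 ± 0.37. The Cyp2c genes are close copies, so their reads may be divided between them.

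Of 23 tested conjugation enzymes and transporters, 12 were lower and 1 higher at an unadjusted p under 0.05 in limma, with a median difference of −0.43. Of all genes, 7.56% were lower and 7.26% higher at that threshold. Without 4-HPAA replicate 3 there were 8 lower and 3 higher in this list, with a median of −0.37. Slco1a4, an uptake transporter of organic anions, had values of 817, 702, 486, 1997, 592 and 1588 in 4-HPAA replicates 1 to 6, against 1587, 2074, 2661, 2331, 2729 and 2053 in control replicates 1 to 6. As for Cyp3a11, replicates 4 and 6 were the highest 4-HPAA livers. The difference of Slco1a4 was −1.29 ± 0.31 (limma, adjusted p = 0.142). The efflux pump Abcc3 was at −0.74 ± 0.21 and the glutathione transferase Gstm3 at −0.96 ± 0.30. Of the 23 differences, 5 were positive and 18 negative. Gstp1, a glutathione transferase with near-identical neighbours, was the 1 gene higher at that threshold with all livers. Gstp1 was at 37946, 51432, 36135, 17883, 36204 and 21861 in 4-HPAA replicates 1 to 6, against 12552, 13983, 10796, 10942, 8366 and 16981 in control replicates 1 to 6. Its groups did not overlap, with a difference of 1.40 ± 0.24 (limma, adjusted p = 0.103), and its lowest 4-HPAA livers were again replicates 4 and 6. These livers lay within the control range on the first principal component of all genes tested, so their place is not particular to these genes.

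Of 12 genes that the receptors control outside drug metabolism, 1 was lower and 1 higher at an unadjusted p under 0.05 in limma (median −0.06), the fatty acid oxidation enzyme Cpt1a at −0.23 ± 0.08 and the secreted protein Tsku at 0.40 ± 0.13. Of 12 tested partners and retention proteins, 1 was higher, the chaperone Hsp90ab1 at 0.25 ± 0.10 (median 0.01), and without 4-HPAA replicate 3 there were 3 higher and 1 lower. Of 14 coactivators and corepressors, none had an unadjusted p under 0.05 in limma (median 0.05), and without 4-HPAA replicate 3 there were 3 higher and 1 lower. The 14 tested hepatic transcription factors acting on Cyp3a genes and the receptors had a median difference of −0.06 (−0.02 without 4-HPAA replicate 3), and Hnf4a, which maintains PXR and CAR expression, was at 0.23 ± 0.13 (limma, adjusted p = 0.408). Of 11 other receptors that pair with RXR, 1 was lower, Pparg at −0.69 ± 0.19 (median −0.01), and without 4-HPAA replicate 3 there were 2 lower. Pparg is also counted among the adipocyte markers below. Of 18 P450 redox partners and haem synthesis genes, 2 were lower, the membrane haem proteins Pgrmc2 at −0.40 ± 0.14 and Pgrmc1 at −0.28 ± 0.12 (median 0.00), and without 4-HPAA replicate 3 there were 2 lower and 1 higher. Of all genes, 7.56% were lower and 7.26% higher at an unadjusted p under 0.05 in limma, and the genes named from these lists are a description. Without 4-HPAA replicate 3, genes under that threshold in the whole table rose from 1886 to 2490. The rise was thus not limited to these lists. No gene of these lists had an adjusted p under 0.05 over all genes in limma.

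**Figure D5:**
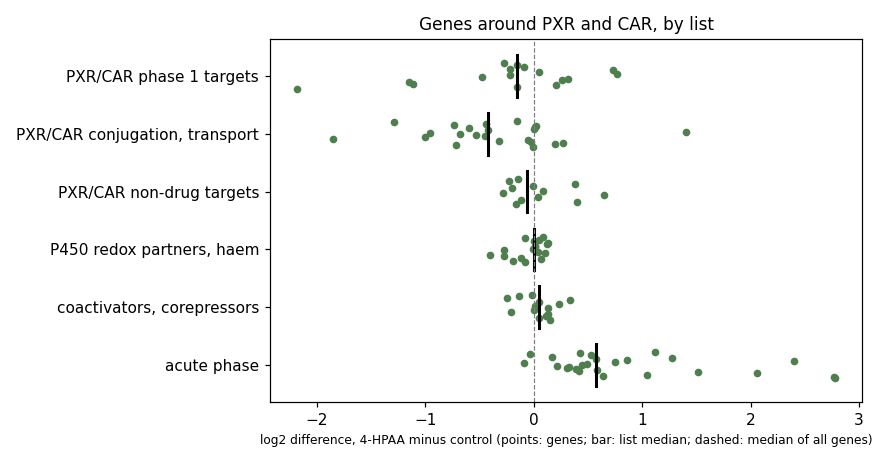
Log2 difference, 4-HPAA minus control (horizontal axis), of each tested gene in 6 lists; black bars are list medians and the dashed line is the median of all genes tested (−0.001). The conjugation and transport list has a median of −0.43 and the acute phase list one of 0.57.

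Acute phase genes, which hepatocytes express in inflammation, were mostly higher in 4-HPAA livers. Of 25 genes, 19 were higher and 0 lower at an unadjusted p under 0.05 in limma, with 23 of 25 differences positive, and 0 had an adjusted p under 0.05. Of all genes, 7.26% were higher and 7.56% lower at an unadjusted p under 0.05. Without 4-HPAA replicate 3, 21 acute phase genes were higher and 0 lower, while genes under that threshold in the whole table rose from 1886 to 2490. The summed value of the acute phase genes was 1375639, 1376991, 1046936, 751147, 1145864 and 843098 in 4-HPAA replicates 1 to 6, against 616513 to 837934 in control livers. The 4-HPAA livers with the lowest sums, replicates 4 and 6, were those with the highest Cyp3a11. The part of this response in the Cyp3a11 values was not tested.

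No marker of other cells or of liver zones had an adjusted p under 0.05 in limma, and the counts below, at an unadjusted p under 0.05, stand against 14.8% of all genes. Of 15 pericentral hepatocyte markers, the zone where Cyp3a11 is mostly made, 12 differences were positive (3 higher and 0 lower; sums 371771 to 480966 in 4-HPAA and 315204 to 471320 in control livers). Of 13 periportal markers, 8 were positive (2 higher and 1 lower; sums 274804 to 386182 in 4-HPAA and 245786 to 336156 in control livers). Stellate cell markers were negative in 13 of 13 (8 lower; sums 6273 to 12059 in 4-HPAA and 10229 to 15600 in control livers), and adipocyte markers in 6 of 6 (5 lower; 773 to 1922 in 4-HPAA and 1276 to 4391 in control livers). Kupffer cell and macrophage markers were negative in 12 of 15 (3 lower; sums 4335 to 7064 in 4-HPAA and 2958 to 11148 in control livers), with control replicates 1 to 3 at 3200, 3754 and 2958 and replicates 4 to 6 at 8120, 7528 and 11148. Endothelial markers were negative in 9 of 11 (3 lower; sums 6047 to 8256 in 4-HPAA and 6579 to 8036 in control livers). Cholangiocyte markers were negative in 4 of 7 (1 lower; 1649 to 2372 in 4-HPAA and 1697 to 2329 in control livers), and lymphocyte markers in 4 of 5 tested (1 higher; 222 to 342 in 4-HPAA and 148 to 512 in control livers). Hepatocyte markers were positive in 10 of 14 (3 higher and 1 lower; sums 2715430 to 3278912 in 4-HPAA and 2904635 to 3523807 in control livers). Without 4-HPAA replicate 3 the counts were 2 higher and 1 lower of pericentral, 3 higher and 1 lower of periportal, 9 lower of stellate, 2 lower of Kupffer cell and 3 higher and 2 lower of hepatocyte markers. In the whole table, genes under that threshold rose from 1886 to 2490 without 4-HPAA replicate 3. The part of these cell types in the values of the Cyp3a genes and receptors was not tested.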

How the data were processed

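Liver RNA of 6 4-HPAA and 6 control samples was purified on RNeasy columns and sequenced from directional TruSeq mRNA libraries on a NovaSeq instrument, per the labels' protocols. STAR, HTSeq, cutadapt, edgeR, DESeq2 1.28.1, FastQC 0.11.9 and build GRCm38 appear in the submitters' processing notes, with roles, order and annotation release not given in the sources used here. Values as deposited by the authors were handled as a score, since they are whole numbers but not raw counts: some low numbers are regularly missing or too frequent, as scaling by 1 factor per library and rounding would give, with factors of 0.849 to 1.128, and median ratios of the columns are 1.003 to 1.009. Depth is the total divided by that factor. The lowest value is 2, so genes with no reads in any 1 library were not analysed here. GENCODE M21 (GRCm38) named 13200 IDs and left 67 unnamed.

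Limma 3.58.1 in R 4.3.3 (trended, robust eBayes) tested log2(value + 1) of the 12720 genes that reached 10 in 6 or more libraries, with Benjamini-Hochberg adjustment at 0.05 over all of them. Differences are 4-HPAA minus control on the log2(value + 1) scale, which understates low genes. The script was tested on simulated data. Correlations within 1 group used all orders. Promoters of RefSeq were searched in Python 3.11.15, aligned with Biopython 1.88, and figures drawn with matplotlib 3.10.9.

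Members and gene lists were chosen with earlier results of these data known. Named genes are the members, up to 4 genes of smallest p per list, the 5 most alike to Cyp3a11 and Nr1i3, and other Cyp3a genes in the table, except that some results are not reported here; Hnf4a falls under the list rule, and Tomm40l, Cyp2e1 values and the control sets were singled out after values were seen. Alternatives were other pseudocounts, filters, scalings, weights, voom, a replicate block and each library left out. The per-length alternative with coding transcripts and the list counts without 4-HPAA replicate 3 were added after seeing the data.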

Additional observations from a re-analysis of the deposited data

How the results depend on the processing

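Over 23 limma alternatives, 2 put a member past an adjusted p of 0.05: Cyp3a11 was at −1.44 with array weights (adjusted p = 0.0404) and −1.60 without 4-HPAA replicate 4 (0.0169). With 1 library left out, its difference ran from −1.60 to −1.27. Cyp3a11, Cyp3a13, Cyp3a25, Cyp3a59, Nr1i2 and Nr1i3 kept their signs in all 23. Por turned to −0.044 with quantile normalization and −0.047 without control replicate 5, and ran from −0.05 to 0.10 with 1 library left out. The cause was not tested. By exact permutation, Cyp3a25 (−0.29, p = 0.0714) and Cyp3a59 (−0.68, p = 0.0563) were no longer under an unadjusted 0.05. Genes with an adjusted p under 0.05 numbered 139 with array weights, 11 with the replicate block and 0 to 193 with 1 library left out (193 without 4-HPAA replicate 4, 5 without control replicate 1). Those with an unadjusted p under 0.05 numbered 3050 with array weights and 1325 to 2490 with 1 library left out. Deviations of same-numbered livers correlated at −0.183 to 0.282, with 3 of 6 over 0.1, and 2 of 6 4-HPAA livers correlated best with the control of their own number. The labels name nothing that the numbers share, so a pairing is not established, and with the replicate block the difference of Cyp3a11 was −1.41 (limma, adjusted p = 0.107).

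Levels per kilobase moved with the length of the named transcript: Cyp3a11 to 2645.3 in 4-HPAA and 6597.3 in control livers, Nr1i3 to 563.1 and 621.1, and Por to 21485.7 and 21111.3. With the longest coding transcript Cyp3a11 was at 3162.2 and 7886.3, Nr1i3 at 563.1 and 621.1, and Por at 5493.7 and 5398.0, in the same order of groups. Over all livers after subtraction of group means, where the sets of controls are mixed, r turned without 4-HPAA replicate 3 to −0.406 for Cyp3a11 and Cyp3a13, −0.136 for Cyp3a13 and Cyp3a25 and −0.037 for Cyp3a25 and Por. Counting only the 250 bases before the start, 24.1% of promoters held a hexamer. The lowest value of a member was 1385, so depth limits these results less than the spread of livers does.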
